A study of Homo sapiens with 4 samples.

Results

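TXNIP, ARRDC4, TXN, SAT1, CLU and GSN are 6 genes grouped here as transcripts known to be higher under inhibitors of histone deacetylases (HDAC), or as close partners of such a transcript (TXN). They were taken from the deposited gene table by exact name, so they are 6 of the 40877 names in it that stand for 1 gene. Counts came from 5′ single-cell RNA sequencing (10x Genomics), in which a count lies near the start of a polyadenylated transcript, of H1299 (human lung carcinoma cells) and HCT116 (human colorectal carcinoma cells). Each line was cultured either with the solvent DMSO or with DAC (decitabine, which inhibits DNA methyltransferases) and SB939 (an HDAC inhibitor) together, called DAC+SB here. Treatment with DAC lasted 72 h and with SB939 18 h, each at 500 nM. Medium was renewed every 24 h in the treated cultures, and the sample records do not state this for the DMSO cultures. Both lines were at passage 5 to 10, and every line and treatment was 1 library. There are thus no replicates and no test, and each interval below is a 95% interval for counting error alone, which does not describe variation between cultures or captures. As both compounds were always given together, the part of either compound cannot be told apart.

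The 6 genes belong to 5 pathways, with the thioredoxin system and the alpha-arrestins taken separately. Thioredoxin, the product of TXN, reduces disulfides in other proteins and is itself kept reduced by thioredoxin reductase (TXNRD1). TXNIP is an alpha-arrestin that binds thioredoxin and promotes the uptake of glucose transporters from the cell surface, and ARRDC4 is a related alpha-arrestin. Both are known targets of the glucose-sensing factors MondoA (MLXIP) and ChREBP (MLXIPL) with their partner MLX, which bind pairs of E-box-like sequences called carbohydrate response elements. SAT1 acetylates the polyamines spermidine and spermine and so starts their breakdown or export. CLU encodes clusterin, a secreted chaperone, and GSN encodes gelsolin, which severs and caps actin filaments. TXNIP induction by an HDAC inhibitor has been tied to an inverted CCAAT sequence of its promoter in other work, which reported lower TXN beside it.

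The promoters of TXNIP, ARRDC4 and SAT1 are shown because the first and the second were both far higher in the treated libraries of both lines, whereas SAT1 differed between the lines. Each is the 250 bases before a RefSeq transcript start (GRCh38.p14), in the direction of transcription, with capitals for matches to CCAAT on either strand and to a pair of CACGNG sequences with 5 bases between them on either strand. The TXNIP window is at chr1:145996580-145996829 on the minus strand, that of ARRDC4 at chr15:97960453-97960702 on the plus strand and that of SAT1 at chrX:23782923-23783172 on the plus strand.
TXNIP: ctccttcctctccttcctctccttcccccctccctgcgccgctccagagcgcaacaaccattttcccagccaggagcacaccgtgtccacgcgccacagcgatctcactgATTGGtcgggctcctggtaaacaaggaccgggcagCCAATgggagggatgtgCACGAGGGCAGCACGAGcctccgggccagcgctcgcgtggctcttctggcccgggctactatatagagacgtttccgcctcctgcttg
ARRDC4: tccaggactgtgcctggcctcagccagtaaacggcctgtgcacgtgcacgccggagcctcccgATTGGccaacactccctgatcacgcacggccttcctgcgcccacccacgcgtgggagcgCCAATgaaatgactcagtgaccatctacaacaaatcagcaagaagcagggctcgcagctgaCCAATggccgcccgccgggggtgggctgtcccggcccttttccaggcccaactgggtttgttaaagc
SAT1: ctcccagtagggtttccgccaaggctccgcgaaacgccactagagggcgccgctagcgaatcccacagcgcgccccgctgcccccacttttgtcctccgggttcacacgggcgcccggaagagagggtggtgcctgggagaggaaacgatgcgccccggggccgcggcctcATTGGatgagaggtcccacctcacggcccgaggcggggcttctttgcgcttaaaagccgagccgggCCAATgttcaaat

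The TXNIP window held CCAAT once on each strand, at -105 and, reversed, at -140 from the transcript start, and the paired E-box-like sequence from -88 to -72. That pair was present in 16 of 35116 RefSeq promoter windows of the same length (0.0456%), but the pattern was picked with the TXNIP element in mind. The ARRDC4 window held 3 CCAAT matches, at -187 (reversed), -128 and -67, and no match to the pair as spelled. SAT1 held 2, at -79 (reversed) and -13. CCAAT on either strand was found in 32.0% of all windows, so its presence is common. The TXN window held no CCAAT and had TATAAA matches at -30 and, reversed, at -32, a sequence found in 10.7% of windows. CpG dinucleotides, where DNA methylation lies, numbered 18 in the TXNIP window, 16 in ARRDC4, 25 in SAT1 and 32 in TXN, against a median of 11 over all windows. The RefSeq table held 5 of the 6 genes, all but CLU. TXNIP had a second start in it with 4 CpG and no match to these patterns, and GSN had 6 starts, with 3 to 33 CpG each. A start of GSN held CCAAT matches at -230 and -7, and another held TATAAA, reversed, at -29.

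The 4 libraries held 15289 cells (3578 and 3726 in H1299, 3658 and 4327 in HCT116, DMSO first) with 38927267 to 64524196 gene and transposable element (TE) counts each. The median cell had 8449 counts in HCT116 DAC+SB and 15784.5 to 17369.5 in the other libraries. Between 18 and 30 cell barcodes were shared by each pair of libraries, 131 in all. Under DMSO 8 of 9 markers of H1299 and 8 of 10 markers of HCT116 were higher in their own line, and under DAC+SB 8 of 9 and 7 of 10. On the counts-per-million scale (CPM, of gene plus TE counts), VIM was at 2282 in H1299 DMSO against 47.0 in HCT116 DMSO, and EPCAM at 0.0155 against 80.7. ESRP1, LGALS4 and TSPAN8, markers of HCT116, were higher in treated H1299, at 2.92, 1.60 and 0.304 against 2.41, 1.08 and 0.0771 CPM. COL4A1, CEACAM6 and TSPAN8 had at most 19 counts in any library. A gene was called measured in a line if it had 100 or more counts in whichever library of that line held more counts of it. Among measured genes the share at least 2-fold higher with DAC+SB was 18.3% in H1299 and 16.2% in HCT116. The share at least 2-fold lower was 7.34% and 20%. The median log2 ratio of DAC+SB to DMSO over these genes was -0.07 and -0.23. Scaling by the median ratio of genes in place of total counts raised every log2 ratio by 0.18 in H1299 and 0.31 in HCT116. It moved the genes past 2-fold from 2673 higher and 1072 lower to 3008 and 649 in H1299, and from 2192 and 2706 to 2796 and 1635 in HCT116.

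Against this background, 4 of the 6 genes were at least 2-fold higher with DAC+SB in H1299 (TXNIP, ARRDC4, CLU and SAT1) and 3 in HCT116 (TXNIP, ARRDC4 and CLU). None was 2-fold lower in either line. The members were chosen with earlier results of these data known, so these counts are a description and no test against the shares of all genes. TXNIP and ARRDC4 reached 100 counts only in the treated libraries, where they are high. TXNIP, ARRDC4 and CLU, past 2-fold higher in both lines as were 8.3% of the 12644 genes measured in both (5.2% were past 2-fold lower in both), were also past 4-fold higher in both. The share of all genes past 4-fold higher was 11% in H1299, 9.63% in HCT116 and 4.68% in both, and past 4-fold lower 0.349%, 3.69% and 0.19%. With a minimum of 10 counts in place of 100, 31.6% and 30.9% of genes were past 2-fold higher in H1299 and HCT116, 19.2% were so in both, and the members' counts were 4 and 3 as before. SAT1 stood at the threshold in H1299, and GSN was higher in both lines by less than 2-fold.

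**Figure D1:**
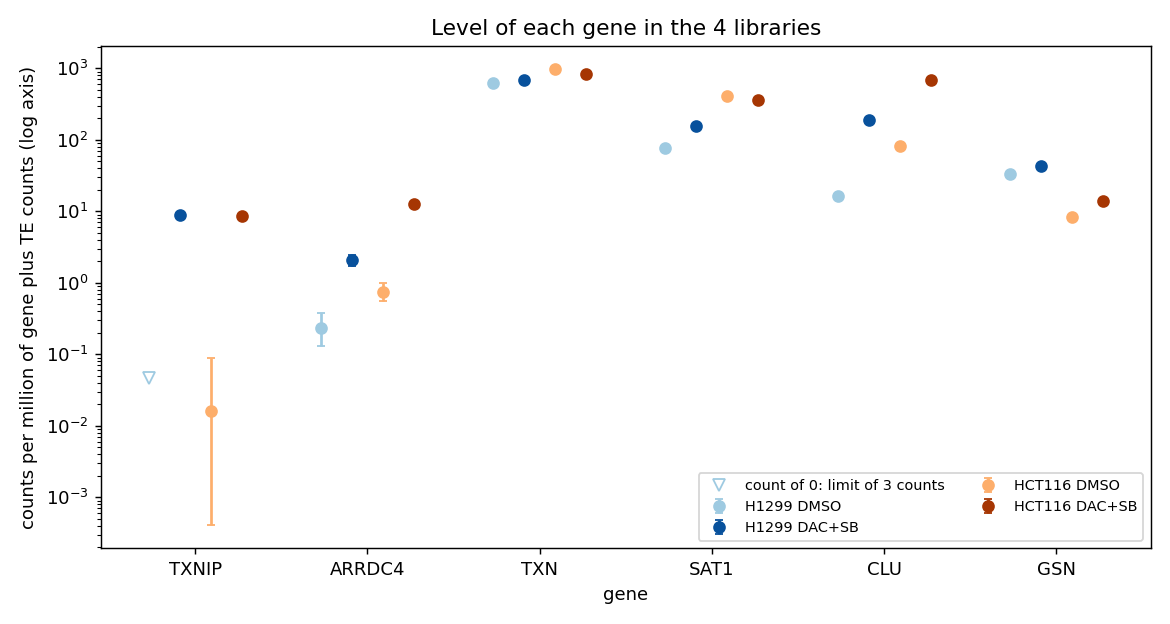
CPM (log axis) of the 6 genes in the 4 libraries, with 95% Poisson intervals that are often smaller than the points; the open triangle is the limit of 3 counts for TXNIP in H1299 DMSO, where it had 0 counts. TXNIP, ARRDC4 and CLU are higher in both treated libraries than in both DMSO libraries, and levels are to be read within a gene, not between genes.

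TXNIP (chromosome 1, 145992435 to 145996600, minus strand) was nearly absent without treatment. H1299 had 0 counts untreated and 558 treated, and HCT116 had 1 and 331. The 2 treated libraries were close, at 8.94 CPM (8.21 to 9.71) for H1299 and 8.50 (7.61 to 9.47) for HCT116, and the log2 ratio between them was 0.07 (-0.13 to 0.27). With the 0 set to 3 counts over the library, TXNIP was at least 192-fold higher with DAC+SB in H1299 as far as listed counts go, and the exact interval starts at 156-fold. From 1 count, the ratio in HCT116 was 533 (94.9 to 21100). The deposited table lists a feature without a number and a numbered feature for each of the 6 genes, and numbered features were listed only from 10 counts in a library. The numbered TXNIP feature was missing from both DMSO libraries, with 114 and 68 counts in the treated ones, so up to 9 DMSO counts of it may be missing in each line, which neither limit covers. Over the feature without a number alone, TXNIP went from 0 to 444 and from 1 to 263 counts, and the log2 ratio was at least 7.26 in H1299 with the 0 set to 3 (the exact interval starts at 6.95) and 8.73 (6.23 to 14.03), from 1 count, in HCT116.

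TXNIP counts were sparse and lay in few cells. A count was found in 8.56% (7.68 to 9.51) of H1299 DAC+SB cells and 4.85% (4.23 to 5.54) of HCT116 DAC+SB cells, at median depths of 15784.5 and 8449. After each cell was thinned to 3300 counts, which left out 402 HCT116 DAC+SB cells, the shares were 3.11% (2.58 to 3.72) and 2.68% (2.19 to 3.23). Among untreated cells, 0 of 3578 H1299 cells had one, which allows a share of up to 0.0838% by a limit of 3 counts (0.103% by the exact interval), and 1 of 3658 HCT116 cells had one, unlisted counts of the numbered feature aside. The most counts in a cell were 11 and 8. No cell type that lacks these genes was in the study, so counts from free RNA were not measured for any of them.

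ARRDC4 (chromosome 15, 97960698 to 97973838, plus strand) was also low without treatment. It had 15 counts (0.232 CPM, 0.130 to 0.383) in H1299 DMSO and 129 (2.07 CPM, 1.73 to 2.46) in H1299 DAC+SB. HCT116 had 47 (0.750 CPM, 0.551 to 0.998) and 494 (12.7 CPM, 11.6 to 13.9). The treated library was above the untreated one in both lines, by 8.89-fold (5.19 to 16.3) in H1299 and 16.9-fold (12.5 to 23.3) in HCT116. Its numbered feature was not listed in H1299 DMSO, and over the other feature the H1299 log2 ratio was 2.71 in place of 3.15. With 95 treated counts, that feature alone is under the minimum of 100 and ARRDC4 would not be called, which leaves 3 members past 2-fold in H1299. Unlike TXNIP, ARRDC4 differed between the treated lines, with a log2 ratio of H1299 to HCT116 of -2.62 (-2.91 to -2.34), and of -1.69 (-2.64 to -0.83) under DMSO. Over the feature without a number alone, an alternative chosen after seeing the data, these were -2.12 (-2.48 to -1.78) and -1.09 (-2.09 to -0.16). ARRDC4 counts were found in 0.391% and 2.84% of H1299 cells and in 1.09% and 8.09% of HCT116 cells (DMSO first), or 0.140%, 0.644%, 0.273% and 3.90% after thinning. Each of the 2 alpha-arrestins was counted in few cells, and so rarely were both counted in the same cell. In thinned HCT116 DAC+SB cells both were counted in 0.153% of 3925 cells, against 0.104% as the product of their shares. ARRDC4 was counted there in 5.71% of cells with a TXNIP count and 3.85% of cells without.

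TXN (chromosome 9, 110243811 to 110256640, minus strand) was abundant in every library and near level between treatments. H1299 was at 628 CPM (622 to 635) untreated and 679 (673 to 686) treated, and HCT116 at 980 (973 to 988) and 834 (825 to 843). The log2 ratios were 0.11 (0.09 to 0.13) and -0.23 (-0.25 to -0.21), and the HCT116 value was at the median of all genes (-0.23). These signs did not hold under all scalings, as the HCT116 value was 0.08 with scaling by the median ratio of genes. As a mean over cells the H1299 value was 0.01. The feature without a number was at 0.50 and -0.45, and the numbered one at 0.07 and -0.22 (H1299 first). After thinning, TXN was counted in 83.7% and 80.9% of H1299 cells and in 94.3% and 83.6% of HCT116 cells (DMSO first), and without thinning in 99.2%, 97.7%, 99.7% and 91.6%. In H1299 the share and the CPM thus pointed opposite ways, and no order is read from them. The ratio of variance to mean of thinned counts, which is 1 for independent counts at 1 common rate, went from 1.35 to 1.53 for H1299 and from 1.30 to 1.81 for HCT116.

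TXN was lower in cells with much mitochondrial RNA. In cells with over 25% mitochondrial counts it was at 370 CPM (91 cells) without and 374 (88 cells) with treatment for H1299, and at 715 (364 cells) and 503 (1086 cells) for HCT116. The remaining cells were at 635, 685, 1012 and 893 CPM. Mitochondrial counts are part of the denominator, and in HCT116 DAC+SB the cells over the limit were shallow, with a median of 4214.5 counts against 9810. Without these cells the HCT116 log2 ratio was -0.18. In the same library SAT1 was at 281 CPM over the limit and 378 at or under it, and CLU at 866 and 668. The part of the mitochondrial share in these values was not tested beyond that.

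SAT1 (chromosome X, 23783173 to 23786226, plus strand) was the member whose response differed most clearly between the lines. In H1299 it went from 77.3 CPM (75.2 to 79.5) with DMSO to 155 (152 to 158) with the inhibitors, which is a ratio of 2.002 (1.93 to 2.07). In HCT116 it was at 417 CPM (412 to 422) and 363 (357 to 369), a ratio of 0.871 (0.853 to 0.889). Both HCT116 libraries were above both H1299 libraries, and the gap narrowed from a log2 ratio of H1299 to HCT116 of -2.43 (-2.47 to -2.39) to -1.23 (-1.27 to -1.19). The log2 ratio in H1299 minus that in HCT116 was 1.20 (1.14 to 1.26), and 15.3% of genes measured in both lines had a difference of at least 1 in this direction. A difference of at least 1 in the other direction was found for 7.77% of genes, so 23.1% differed either way, against 2 of the 6 members (SAT1 and TXNIP). At a difference of at least 2 these shares were 5.07%, 3.56% and 8.63%, with none of the members. The H1299 value sat on the 2-fold line, at 0.98 to 1.18 on the log2 scale over the alternatives. Its feature without a number was at 0.87 (0.77 to 0.96), under 2-fold, and its numbered feature at 1.05 (0.99 to 1.11), with -0.16 and -0.21 in HCT116. Over the feature without a number alone, the log2 ratio of H1299 to HCT116 was -1.98 with DMSO and -0.96 with treatment. In HCT116 SAT1 was 0.03 above the median of all genes, and it was at 0.11 with scaling by the median ratio of genes. For TXNIP the difference of -1.47 comes from setting 0 counts to 3 in H1299 while 1 count stayed 1 in HCT116. Neither its size nor its sign is thus measured. Its interval spans 0 (-3.79 to 0.85) and is too narrow, as it takes the 1 count as 3. ARRDC4 was just short of a difference of 1, at -0.93 (-1.81 to -0.04), with its numbered feature unlisted in H1299 DMSO alone. Over its feature without a number the log2 ratios were 2.71 in H1299 and 3.74 in HCT116, just past a difference of 1. With scaling by the median ratio of genes, 3 members in place of 2 differed by at least 1, as ARRDC4 was at 3.33 and 4.39.

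**Figure D2:**
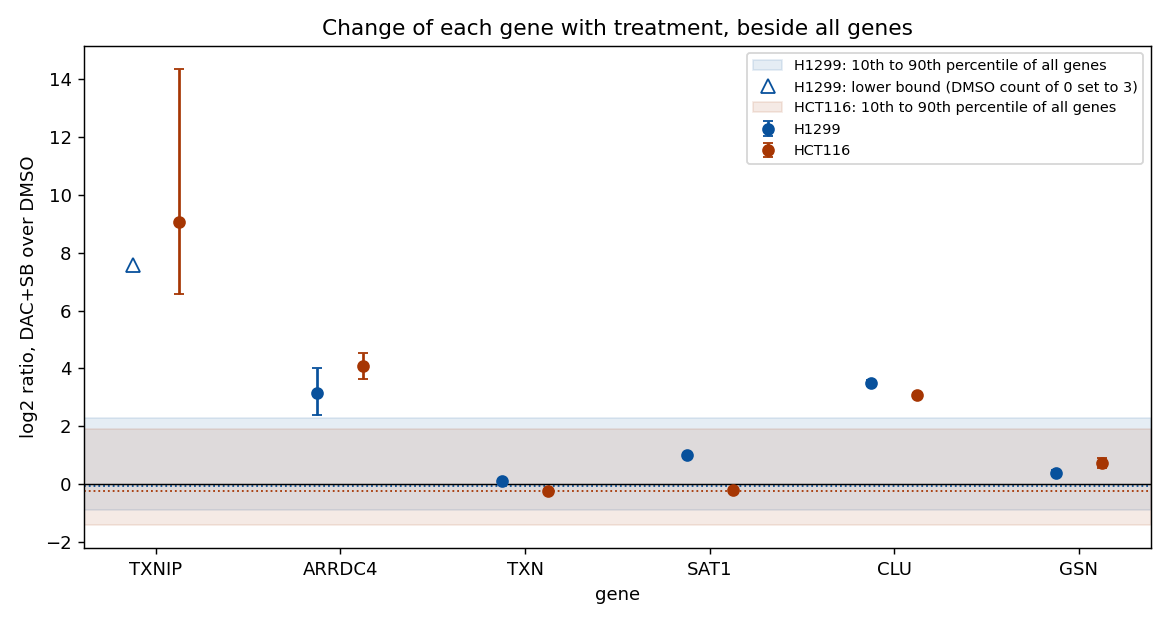
Log2 ratio of DAC+SB to DMSO for the 6 genes in H1299 (blue) and HCT116 (brown), with exact 95% counting intervals; the shaded bands span the 10th to the 90th percentile of all genes (-0.89 to 2.30 in H1299, -1.43 to 1.89 in HCT116), and dotted lines are their medians. TXNIP, ARRDC4 and CLU lie above both bands, and TXN, SAT1 and GSN lie within them.

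CLU (chromosome 8, 27596917 to 27615031, minus strand) was well counted in all 4 libraries and higher with treatment in both lines. It went from 16.6 CPM (15.6 to 17.6) to 187 (184 to 190) in H1299, from 1072 to 11673 counts. In HCT116 it went from 81.6 CPM (79.4 to 83.9) to 698 (690 to 707), from 5113 to 27187 counts. The ratios were 11.3 (10.6 to 12.0) for H1299 and 8.56 (8.30 to 8.82) for HCT116. Over the alternatives that keep both features of CLU, the log2 ratios were 3.48 to 3.67 for H1299 and 3.05 to 3.41 for HCT116. The log2 ratio of the lines under DMSO, -2.30 (-2.39 to -2.20), and under DAC+SB, -1.90 (-1.93 to -1.87), show HCT116 above H1299 with either treatment. Both features of CLU were listed in all 4 libraries. Log2 ratios were 3.71 (H1299) and 3.26 (HCT116) for the numbered one, and 3.09 and 2.67 for the other one. The numbered feature accordingly held 60.4% and 70.1% of CLU counts in H1299 and 67.6% and 75.9% in HCT116 (DMSO first). GENCODE release 29 lists 16 distinct transcript starts for CLU, and the sources used here do not say which of them either feature covers.

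At the level of cells, the CLU difference was spread over many cells. After thinning, it was counted in 5.65% (4.91 to 6.45) of H1299 DMSO cells and 38.9% (37.3 to 40.4) of H1299 DAC+SB cells. In HCT116 the shares were 22.6% (21.2 to 24.0) and 74.4% (73.0 to 75.8). Without thinning they were 22.3%, 78.8%, 65.0% and 91.4%. No thinned H1299 DMSO or HCT116 DMSO cell had 6 or more CLU counts, whereas 0.966% of H1299 DAC+SB cells and 10.5% of HCT116 DAC+SB cells did. The variance-to-mean ratio was 1.10 and 2.11 in H1299 and 1.24 and 3.37 in HCT116 (DMSO first). The mean thinned count was 0.0615 and 0.669 in H1299 and 0.285 and 2.39 in HCT116. Where rates differ between cells, the variance-to-mean ratio can rise with the mean alone. A more uneven spread of CLU among treated cells is thus not read from it. Whether counts are unique molecules is not known here, and repeated reads of a molecule would also raise this ratio. For SAT1 this ratio was 1.30 and 1.54 in H1299 and 2.20 and 2.64 in HCT116. SAT1 was counted in 19.9% and 33.0% of thinned H1299 cells and in 63.0% and 52.8% of thinned HCT116 cells, or without thinning in 55.6%, 70.7%, 93.4% and 72.0%.

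**Figure D3:**
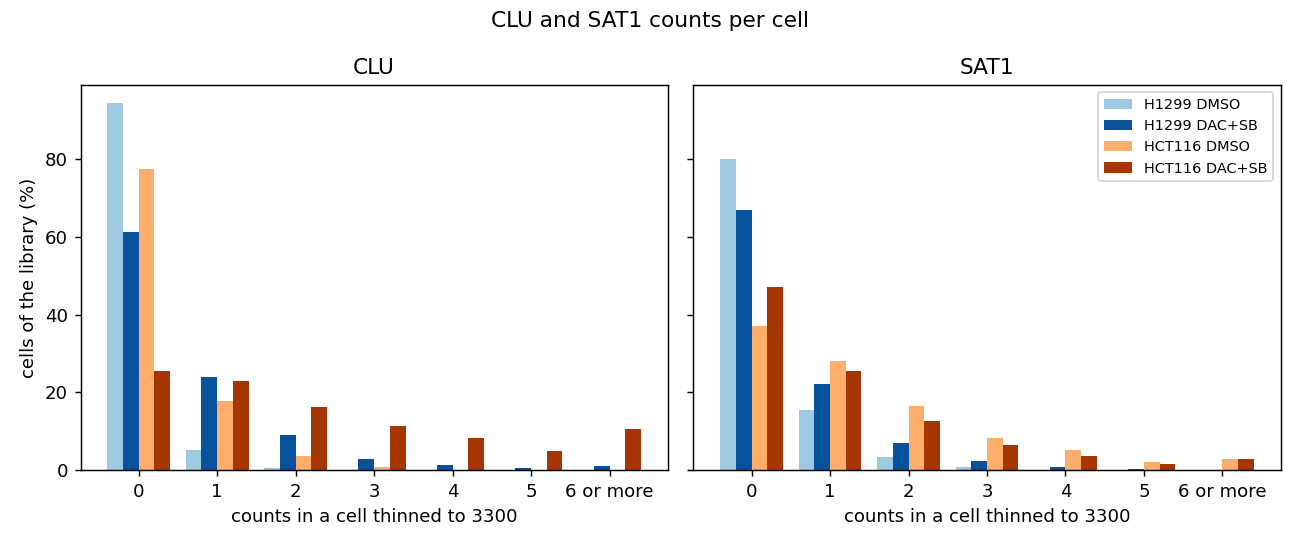
Percent of cells of each library with 0 to 5, or 6 or more, counts of CLU (left) and SAT1 (right) after each cell was thinned to 3300 counts. Treated cells of both lines shift to higher CLU counts (10.5% of HCT116 DAC+SB cells had 6 or more), while for SAT1 the share of cells with a count is higher in treated H1299 (33.0% against 19.9%) and lower in treated HCT116 (52.8% against 63.0%).

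GSN (chromosome 9, 121207794 to 121332843, plus strand) had a higher level in H1299 than in HCT116 with either treatment, unlike ARRDC4, TXN, SAT1 and CLU. For TXN this order holds over both features, whereas its feature without a number alone was higher in H1299 under DAC+SB, by 0.28 (0.21 to 0.35) on the log2 scale. GSN was at 33.1 CPM (31.7 to 34.5) and 43.6 (41.9 to 45.2) in H1299, and at 8.37 (7.66 to 9.11) and 13.8 (12.7 to 15.1) in HCT116. The ratios were 1.32 (1.24 to 1.39) and 1.66 (1.46 to 1.87), higher with treatment in both lines but under 2-fold. With scaling by the median ratio of genes the HCT116 log2 ratio was 1.04 in place of 0.73. Log2 ratios of the numbered GSN feature were 0.51 (0.30 to 0.73) for H1299 and 1.30 (0.91 to 1.69) for HCT116, and of the other one 0.38 (0.29 to 0.47) and 0.57 (0.37 to 0.77). In HCT116 the intervals of the 2 features did not overlap, and the numbered one went from 17.4% to 25.8% of GSN counts. GSN had a count in 9.50% and 13.0% of thinned H1299 cells and in 2.27% and 4.94% of thinned HCT116 cells. Unthinned, they were 37.8%, 43.9%, 11.2% and 10.9%. Genes on the opposite strand overlap GSN in GENCODE (RAB14, GSN-AS1 and 2 others), and the sources used here do not say whether counting used the strand.

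**Figure D4:**
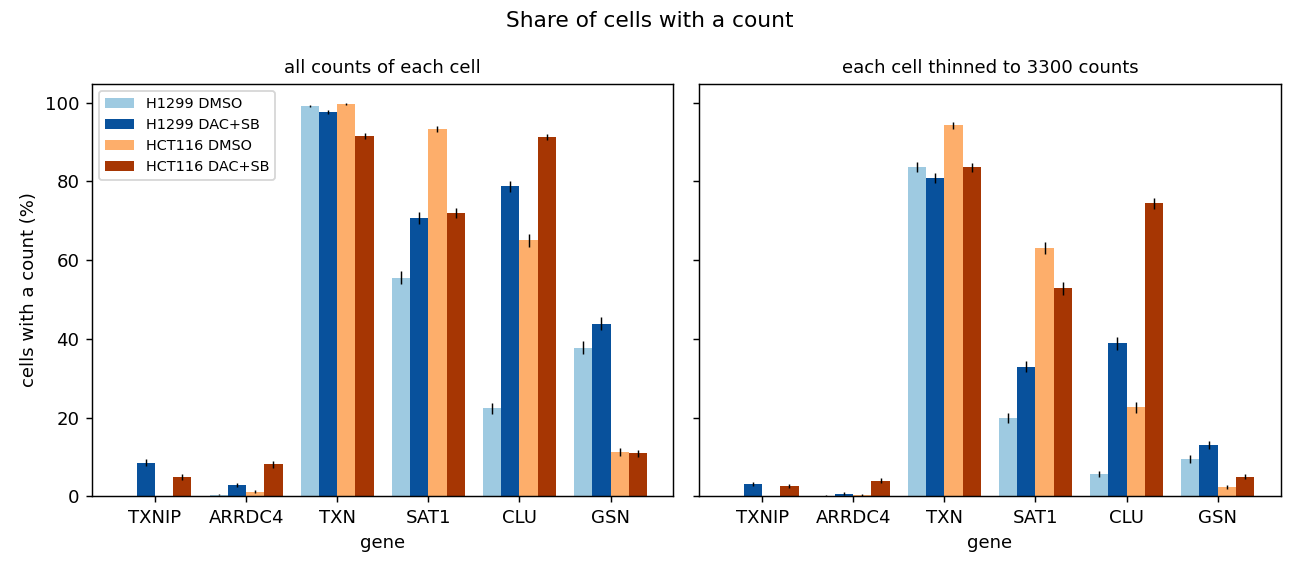
Percent of cells with at least 1 count of each gene in the 4 libraries, with exact Clopper-Pearson 95% intervals, from all counts (left) and after thinning each cell to 3300 counts (right). CLU shows the widest gap between treatments in both panels, and TXNIP and ARRDC4 are counted in under 10% of cells of every library.

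Cells were also compared within each library by their TE share, as the series is about TE expression. In H1299 DAC+SB, the quartile of cells with the highest TE share (median 5.13%) had 191 CPM (184 to 198) of SAT1 and 197 (190 to 204) of CLU. The quartile with the lowest share (1.27%) had 122 (117 to 128) and 151 (145 to 157). SAT1 showed the same order in both DMSO libraries, with 99.7 CPM (94.7 to 105) and 52.3 (48.9 to 55.9) for H1299 and 444 (434 to 455) and 383 (374 to 393) for HCT116. HCT116 DAC+SB was the 1 library with the opposite order of SAT1, at 336 CPM (324 to 348) in the highest and 421 (409 to 433) in the lowest quartile, while CLU was at 728 and 651. TXN was lower in the highest quartile of both treated libraries, at 642 against 719 CPM in H1299 and 645 against 970 in HCT116. GSN was also lower there, with ratios of the highest to the lowest quartile of 0.841 (0.755 to 0.936) in treated H1299 and 0.751 (0.587 to 0.956) in treated HCT116, and of 0.757 (0.581 to 0.983) in untreated HCT116, against 1.08 (0.957 to 1.22) in untreated H1299. For CLU the DMSO ratios were 0.936 (0.791 to 1.11) in H1299 and 1.12 (1.04 to 1.21) in HCT116. ARRDC4 had ratios of 1.05 (0.638 to 1.74) and 0.905 (0.693 to 1.18) in the treated libraries, both intervals spanning 1, and 2.41 (1.02 to 6.32) in HCT116 DMSO, from 20 and 8 counts. In H1299 DMSO its ratio was 0.680 (0.175 to 2.36), from 5 and 8 counts. The quartiles differed in depth in HCT116 DAC+SB (median 7406 and 9993 counts), and cells of 1 library are not replicates. TE counts are part of the CPM denominator, so a higher TE share by itself lowers the CPM of every gene. In HCT116 DAC+SB the median TE share was 9.77% in the highest and 2.39% in the lowest quartile. The values were not corrected for this. TXNIP in the highest and lowest quartile was at 10.4 and 7.88 CPM in treated H1299, with a ratio of 1.32 (1.04 to 1.68). In HCT116 DAC+SB it was at 8.26 and 6.97, a ratio of 1.19 (0.850 to 1.65) that spans 1.

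Counts of the members were at most weakly related from cell to cell. Over pairs of members in thinned cells, the highest Spearman correlation was that of SAT1 and CLU in HCT116 DAC+SB, 0.11 over 3925 cells. There CLU was counted in 76.9% of cells with a SAT1 count and 71.7% of cells without. In H1299 DAC+SB the same pair was at 0.01 over 3726 cells. These are descriptions from sparse counts of cells that share a library.

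Genes of the same pathways were described from 5 lists, by the number past 2-fold. The lists hold the 6 members themselves, and the counts include them. In the thioredoxin and peroxiredoxin list all 26 genes were measured in both lines, with a median log2 ratio of 0.08 in H1299 and -0.16 in HCT116. H1299 had 4 higher and 1 lower, and HCT116 had 2 higher and 2 lower, or 6 and 2 with scaling by the median ratio of genes (called rescaled here). These and the counts below are to be read beside the shares of all genes past 2-fold, 18.3% higher and 7.34% lower in H1299 and 16.2% and 20% in HCT116. Rescaled counts are to be read beside rescaled shares, 20.6% higher and 4.44% lower in H1299 and 20.7% and 12.1% in HCT116. A gene that met the count minimum only in the treated library of a line could be counted as higher but not as lower. Among genes counted as higher, these were PRDX2, SRXN1, TXNIP, ARRDC4, MLXIPL, PAOX, CRYAB, SPARC, APOE, SCIN and CAPG in H1299. In HCT116 they were TXNIP, ARRDC4 and SLC2A3. Such genes also enter the medians, and the shares of all genes follow the same rule. PRDX2, a peroxiredoxin that removes hydrogen peroxide, went from 1 count to 873 counts with treatment of H1299, a log2 ratio of 9.82 (7.34 to 15.12). It was 8.61 without a numbered feature listed in 1 library only and 7.96 without the deepest 5% of cells. Each of these values rests on at most 1 DMSO count, and would be a lower bound if that count was left out. In HCT116, where PRDX2 had 13492 DMSO counts, its log2 ratio was 1.40 (1.37 to 1.43). SRXN1, which repairs oxidised peroxiredoxins, was at 1.58 (1.21 to 1.96) and 1.12 (0.88 to 1.37). PRDX1 and GLRX (glutaredoxin) were at 1.03 and 1.74 in H1299 and at 0.91 and 0.85 in HCT116, or 1.22 and 1.16 there with scaling by the median ratio of genes. PRDX1 in H1299 was just under 2-fold as a mean over cells (0.98) and without the deepest 5% of cells (0.997). TXNRD1, the reductase of TXN, was at -0.27 in H1299 and -1.48 (-1.55 to -1.42) in HCT116. TMX2 was lower in both, at -1.23 and -1.80, with further counts under a name joined to another gene.

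In the list of alpha-arrestins and glucose sensing, 17 genes in H1299 and 16 in HCT116 of 18 were measured, with median log2 ratios of 0.13 and -0.21. H1299 had 4 higher and 0 lower and HCT116 3 higher and 3 lower, rescaled 4 and 1. TXNIP and ARRDC4 were the only alpha-arrestins past 2-fold, as ARRDC1, ARRDC2 and ARRDC3 lay between -0.62 and 0.43 in both lines and ARRDC5 had at most 3 counts. SLC2A3, a glucose transporter, was higher in both lines at 2.12 (2.01 to 2.23) and 2.66 (2.20 to 3.14), the latter 1.45 without a numbered feature listed in 1 library only. SLC2A1, the widespread glucose transporter, was at -0.78 and -1.07. MLXIP (MondoA) was at -0.65 and -1.18, while MLXIPL (ChREBP) was at 4.64 (4.08 to 5.25) in H1299, from 27 to 651 counts, and at -0.11 in HCT116, from 807 to 465. DDIT4, a stress-induced inhibitor of mTORC1, was at 0.26 and -1.64.

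**Figure D5:**
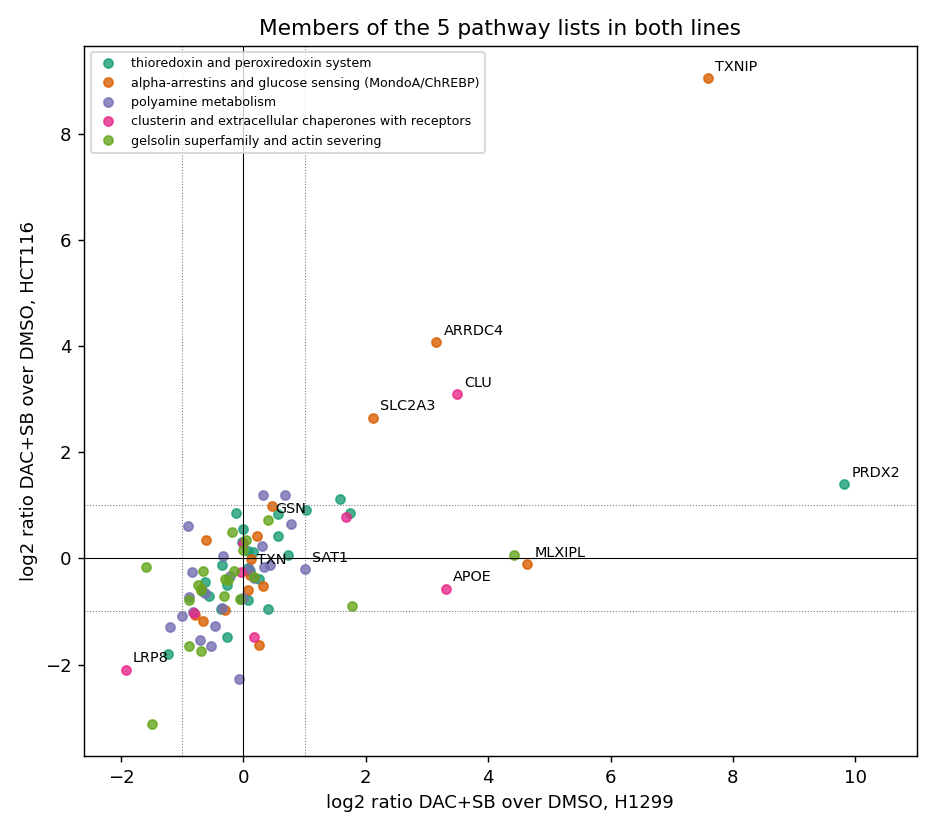
Log2 ratio of DAC+SB to DMSO in H1299 (horizontal) and HCT116 (vertical) for measured genes of the 5 pathway lists, each with 100 or more counts in either library of each line; dotted lines mark 2-fold. TXNIP (a lower bound in H1299), ARRDC4, CLU and SLC2A3 are high in both lines, while PRDX2 (from 1 DMSO count in H1299), MLXIPL and APOE are high mainly along the H1299 axis.

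In the polyamine list of 27, of 26 genes measured in H1299, 2 were higher and 3 lower (median -0.27, rescaled 2 and 1), and of 24 in HCT116, 2 were higher and 7 lower (median -0.35), or 2 and 3 with scaling by the median ratio of genes. PAOX, the oxidase that acts on the acetylated polyamines made by SAT1, was higher in H1299 at 1.76 (1.33 to 2.22), or 1.05 without a numbered feature listed in 1 library only. In HCT116, under the count minimum with 18 and 53 counts, it was at 2.24 (1.45 to 3.10). ODC1, which makes putrescine at the start of the pathway, was at 0.69 in H1299 and 1.20 (1.16 to 1.24) in HCT116, and AZIN2, an antizyme inhibitor, at 0.33 and 1.19. SRM, the spermidine synthase, was at -0.70 and -1.53, and EIF5A, the protein that carries the spermidine-derived residue hypusine, at -0.46 and -1.27. In the methionine salvage branch, MTAP was at -1.20 and -1.29, APIP at -1.004 and -1.09 and ADI1 at -0.54 and -1.66. MTAP counts under joined names brought it to -0.84 and -0.92. SLC18B1, a polyamine transporter, was lowest in HCT116 at -2.26.

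In the list of clusterin, other extracellular chaperones and their receptors, 12 of 18 genes were measured in H1299 and 8 in HCT116, with medians of 0.50 and -0.41. H1299 had 5 higher and 1 lower, and HCT116 had 1 higher (CLU) and 3 lower, rescaled 2 and 2. Of the 5, CRYAB, SPARC and APOE met the count minimum only in the treated library. Of genes measured in both lines, CLU was past 2-fold higher in both. CRYAB, a small heat shock protein, went from 2 to 229 counts in H1299 (6.89, 5.02 to 9.94), SPARC from 16 to 586 and APOE from 75 to 719, a log2 ratio of 3.31 that was -0.57 in HCT116. CRYAB and SPARC, under the count minimum in HCT116, had 4 and 34 and 7 and 94 counts there, log2 ratios of 3.77 (2.29 to 5.73) and 4.43 (3.33 to 5.79). LRP8, a receptor for apolipoprotein E and clusterin, was lower in both lines at -1.92 (-2.13 to -1.71) and -2.10 (-2.38 to -1.82), and HSPB1 was at 0.17 and -1.49. Other receptors of the list varied in direction, with LRP1 at 1.68 in H1299 and 0.79 in HCT116 and SORL1 at -0.81 and -1.04.

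In the gelsolin and actin list, 21 of 24 genes were measured in H1299 and 20 in HCT116, with medians of -0.25 and -0.40. H1299 had 3 higher and 2 lower, and HCT116 had 0 higher and 3 lower, rescaled 1 and 3. GSN itself had the highest ratio among the measured genes of the list in HCT116. SCIN, VIL1, AVIL and VILL had higher ratios there but were under the count minimum, at 39 to 73 treated counts. The gelsolin relatives SCIN (0 to 155 counts) and CAPG (24 to 499 counts) were the highest in H1299. SCIN was at least at 5.42 and CAPG at 3.54 without numbered features listed in 1 library only, and at 5.74, with its 0 set to 3, and 4.43 (3.84 to 5.08) with them. CAPG had 2769 counts in HCT116 DMSO and was at 0.06 there, and SCIN had 1 and 39 counts. TMSB4X, which sequesters actin monomers, was at 1.78 in H1299 and -0.89 in HCT116. CAP2, which recycles actin monomers, was lower in both at -1.49 (-1.60 to -1.39) and -3.12 (-3.56 to -2.71), and SVIL (supervillin) was at -1.59 and -0.16. Scaling by the median ratio of genes raised the medians of the 5 lists, in the order given, to 0.26, 0.31, -0.09, 0.68 and -0.07 in H1299. In HCT116 they became 0.16, 0.10, -0.03, -0.10 and -0.09, so the sign of the first and the second was the opposite there. The HCT116 median of the first list was also positive, at 0.06, without numbered features listed in 1 library only, and -0.03 with joined names added.

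Genes with the most similar pattern to each member were taken by the smallest Euclidean distance over log2(CPM + 1) in the 4 libraries, each centred on its mean, among genes with at least 1000 counts. The patterns nearest to TXNIP were those of RBM46 (distance 0.22), which was at 0 in both DMSO libraries and at 10.7 and 9.71 CPM with DAC+SB, NSG1 (0.27) and CORO1A (0.36). CLU had no close neighbour, the nearest being ART5 (0.51), CD24 (0.59) and TEX14 (0.68). SAT1 was nearest to CBX2 (0.13), SLC25A33 and ELL3, TXN to NDUFB10 (0.03), PIK3C2A and CUL2, and GSN to IRGQ (0.10), AC079922.3 and RGS17. The genes nearest to ARRDC4 were small RNA names of repeated families (RNU2-63P at 0.25 and 2 others), whose reads can be shared among copies. Over 4 libraries such likeness is a description.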

How the data were processed

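The authors deposited 1 table for genes and 1 for TE, with a count per feature and cell that is a whole number in every row. Per the submitters' processing notes CASAVA and STAR were used with GRCh38 (hg38). The sources used here do not give the counting tool, the cell filter or whether counts are unique molecules. Each cell name ends in its sample title, which gave the library. Counts of features that name 1 gene were summed per gene and library and divided by gene plus TE counts. Joined names (2419) were left out and added in an alternative. A count of 0 was set to 3 in ratios. All genes were computed in 1 table and called at 2-fold with at least 100 counts. Intervals are exact Poisson, Clopper-Pearson or conditional binomial, and normal for differences between the lines. All cells had at least 2086 counts and were kept. Doublets were not called; leaving out the deepest 5% of cells was 1 of the alternatives. To compare shares of cells, each cell was thinned to 3300 counts. The code for ratios and intervals was checked on simulated counts with known ratios. Members and lists were chosen with earlier results of these data known. Named list genes were those past 2-fold in both lines (up to 4 a direction) and the highest and lowest in each line. PRDX1, GLRX, TXNRD1, ARRDC1 to ARRDC3, ARRDC5, MLXIP, MLXIPL, AZIN2, SRM, EIF5A, ADI1, APOE, SPARC, LRP1, SORL1, HSPB1, CAPG, VIL1, AVIL, VILL and TMSB4X were added after their values were seen. A gene of 1 list and 2 line markers are not reported here. Positions are from GENCODE release 29 (GRCh38), promoters from RefSeq (GRCh38.p14). Python 3.11.15, numpy 2.4.6, pandas 2.3.3 and scipy 1.17.1 were used.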

Additional observations from a re-analysis of the deposited data

Results flagged for a closer look

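SAT1 was higher with DAC+SB in H1299 and lower in HCT116, each beyond counting error, a difference in log2 ratio of 1.20. By total counts TXN had the same signs on a smaller scale, with a difference of 0.35, but no direction is read for it in H1299. Averaging the levels of single cells gave a log2 ratio of 0.01 there. A TXN count was found in fewer thinned cells of treated H1299 (80.9% against 83.7%). Its HCT116 ratio was at the median of all genes (-0.23). With 1 library per group neither difference was tested, and 24.7% of genes measured in both lines had opposite signs; both HCT116 values were above 0 with scaling by the median ratio of genes (0.11 and 0.08). The name that joins CLU with MIR6843, a microRNA within it, was left out of CLU and had 5 counts in H1299 DAC+SB and 10 in HCT116 DAC+SB, against 0 in both DMSO libraries.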

How the results depend on the processing

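No paired analysis was possible because every group is 1 library, and for the same reason no replicate could be left out. Of 50 recomputed member counts, 48 stayed within 1.5 times the value reported. These include the counts of members past 2-fold lower, which were 0 throughout. A change from 4 to 3 members, or from 2 to 3, lies within that factor, so single calls can be lost or gained. The number of members at least 2-fold higher in H1299 was 2 as a mean over cells, where TXNIP has no ratio (0 with DMSO) and SAT1 was at 0.98. At 4-fold, 0 members in place of 2 had treatment ratios that differed between the lines. At 2-fold, 3 did with scaling by the median ratio of genes, and 3 without the 5% of cells with most counts. With a minimum of 10 counts the share of all genes whose ratios differed between the lines by 2-fold was 35.1% in place of 23.1%. SAT1 in H1299 was under 2-fold also without the 5% of cells with most counts (0.98) and without cells above 25% mitochondrial counts (0.99). Of 95 recomputed log2 ratios of members, 75 stayed within the counting interval and none of those past 2-fold changed sign. Part of these could not move. Adding joined names changed only CLU, and leaving out numbered features listed in 1 library changed only TXNIP and, in H1299, ARRDC4. The interval of TXNIP has no upper limit in H1299 and is wide in HCT116, so staying within it says little. The shares of cells moved with depth in most cases (45 of 48). TXNIP and ARRDC4 are limited by depth: with 0 to 47 counts in the DMSO libraries their ratios have wide intervals or are bounds.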
